A study of Mus musculus with 6 samples.

Results

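The SLAM family receptors are a group of 9 immunoglobulin-like cell surface proteins, and all 9 genes (Cd48, Slamf1, Cd244, Ly9, Cd84, Slamf6, Slamf7, Slamf8 and Slamf9) were measured here by 1 array feature each, out of 19938 genes measured in all. They were chosen as a family by name, with earlier results of these data known. Cd244 is listed under its current symbol Cd244a in the annotation and is called Cd244 here. RNA came from multipotent progenitors of mouse bone marrow, lineage-negative cells gated on Sca-1, c-Kit, CD34 and a receptor that the series text spells Flt2, while its title and cell number speak of long-term stem cells. The Lxn-/- group holds 3 arrays of C57BL/6 mice in which exons 2 to 4 of latexin (Lxn), a carboxypeptidase inhibitor gene, are deleted. The WT group holds 3 arrays of C57BL/6 mice with intact latexin. In both groups the mice are labelled as females aged 8 to 12 weeks, and each array is a pool of 10 to 20 mice with about 100000 cells, so single animals were not measured. Values are log2 expression values on MoGene 1.0 ST arrays, changes are Lxn-/- minus WT with the standard error (SE) from limma, and precision is limited by the number of arrays, 6.

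SLAM receptors are named after the signaling lymphocytic activation molecule, CD150, the product of Slamf1. Most bind a copy of themselves on a neighbouring cell, whereas CD48, which is held in the membrane by a lipid anchor and has no cytoplasmic tail, is the ligand of CD244 and, in mice, of CD2. Several carry tyrosine motifs in the tail that recruit small SH2 adaptors of the SAP family. In mouse bone marrow, antibodies to CD150, CD48, CD244 and CD229 (the product of Ly9) are widely used to split stem cells, which stain for CD150 and not for CD48, from multipotent and restricted progenitors. None of these receptors is named in the sort gate given here.

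The labels of the arrays were checked first. Lxn was 8.03, 8.53 and 8.61 in Lxn-/- arrays 1 to 3, against 8.56, 8.70 and 8.58 in WT arrays 1 to 3 (log2 change -0.22, SE 0.15, adjusted p = 0.459 in limma), so it did not separate the groups. The position of its probes relative to the deleted exons was not analysed here. Xist, the RNA that silences an X chromosome in female cells, was 6.86 and 5.85 in Lxn-/- arrays 1 and 3, against 13.17 in Lxn-/- array 2 and 13.13 to 13.23 in WT. The Y-linked gene Eif2s3y was 8.57 and 9.36 in Lxn-/- arrays 1 and 3, against 3.83 in Lxn-/- array 2 and 3.68 to 3.97 in WT. Lxn-/- arrays 1 and 3 thus go against their label as female, and results on the SLAM genes are also given without them. With all arrays kept, latexin genotype and sex cannot be told apart in Lxn-/- minus WT changes. Thbs1, which encodes the matrix protein thrombospondin 1, split the arrays in the same way, at 8.20 and 8.69 in Lxn-/- arrays 1 and 3, against 11.34 in Lxn-/- array 2 and 10.70 to 11.47 in WT. None of these genes set the library labelled Lxn-/- array 2 clearly apart from WT, so its genotype label was not borne out by them, and values from it alone carry that doubt. Nor did Lxn set array 3 apart, at 8.61 inside the WT values. Xist and Eif2s3y read the sex of the mice and not the latexin genotype, so they do not bear out that label for arrays 1 and 3 either. Of the gate genes, Kit, Flt3 and Cd34 had group means between 11.91 and 13.40 in Lxn-/- and between 12.13 and 13.41 in WT, and Ly6a (Sca-1) was not analysed here. Flt3 is counted among them because Flt2 in the series text was taken to mean Flt3, which was not checked.

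Signal brightness was read against 1035 olfactory receptor features, which serve as genes with little or no transcript expected in blood progenitors, because detection calls were not used here. Their 95th percentile was 7.10 in Lxn-/- and 7.33 in WT. Cd48, Ly9, Cd244 and Cd84 lay 2.63 to 3.84 above that level in Lxn-/- and 2.34 to 3.32 above it in WT, on the log2 scale. Slamf1, Slamf7 and Slamf8 lay below it in both groups. Slamf9 was 0.08 above it in Lxn-/- and 0.04 above it in WT. Slamf6 was 0.57 above it in Lxn-/- and 0.04 below it in WT. With the 99th percentile as the level, 4 genes remained above it in each group. Features of different genes bind with different efficiency, so the values of different SLAM genes are not ranked against each other. In a bulk RNA sample, fewer cells of a type and less RNA per cell cannot be told apart.

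**Figure D1:**
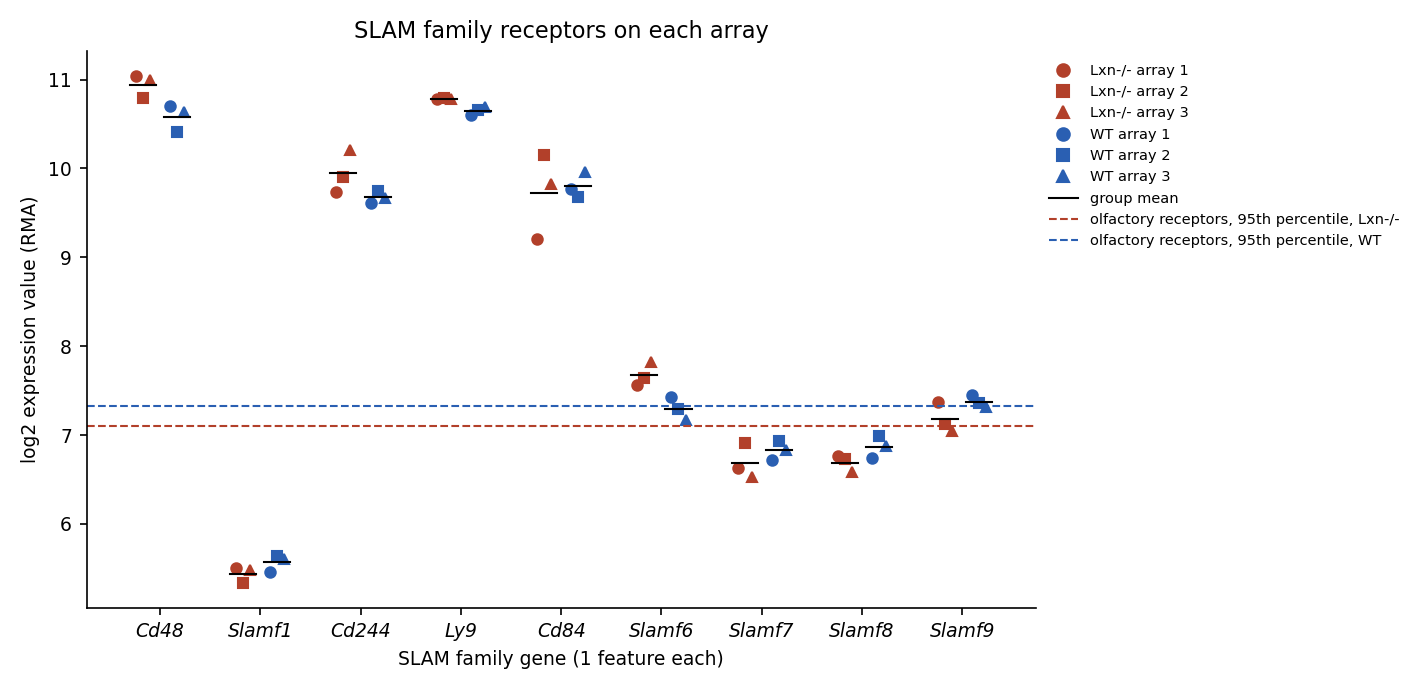
Log2 expression value of each SLAM family gene on each array, with Lxn-/- arrays in red left of WT arrays in blue, bars for group means (n = 3) and dashed lines for the 95th percentile of the olfactory receptor features in each group. Cd48, Cd244, Ly9 and Cd84 sit well above both lines, and Slamf1, Slamf7 and Slamf8 sit below them.

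Cd48 and Slamf1 are the pair that antibody schemes read together, and in both groups they lay on opposite sides of the olfactory receptor level. Cd48 was 11.04, 10.79 and 11.00 in the Lxn-/- arrays, against 10.70, 10.41 and 10.64 in the WT arrays. Slamf1 was 5.50, 5.34 and 5.48 in the Lxn-/- arrays, against 5.46, 5.64 and 5.61 in the WT arrays. The Slamf1 values were below the median of the olfactory receptor features, which was 5.83 in Lxn-/- and 6.03 in WT, so its signal was not above that background in either group.

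The regions upstream of the start sites of Cd48, Slamf1 and Cd84 are shown because the first 2 genes are the pair read together in antibody schemes and Cd84 had the largest SD of the family in Lxn-/-. Each is the 250 bases before the start site in RefSeq's promoter table for GRCm38.p6, on the plus strand of chromosome 1 (chr1:171681742-171681991 for Cd48, chr1:171766882-171767131 for Slamf1, chr1:171839447-171839696 for Cd84). Capitals mark matches to the core letters of factors that act in blood cells, searched on both strands. The core letters searched for ETS factors were CGGAA. Those for the factors of the GATA family were GATAA. For RUNX proteins the letters TGTGGT were used. The E-box, which is bound by basic helix-loop-helix factors, was searched as CAGCTG. The motifs were chosen with these sequences in view.
Cd48: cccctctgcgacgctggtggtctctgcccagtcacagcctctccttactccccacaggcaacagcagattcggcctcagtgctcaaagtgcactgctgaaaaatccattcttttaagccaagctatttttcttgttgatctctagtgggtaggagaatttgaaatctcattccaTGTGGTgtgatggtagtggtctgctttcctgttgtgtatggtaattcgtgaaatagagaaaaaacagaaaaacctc
Slamf1: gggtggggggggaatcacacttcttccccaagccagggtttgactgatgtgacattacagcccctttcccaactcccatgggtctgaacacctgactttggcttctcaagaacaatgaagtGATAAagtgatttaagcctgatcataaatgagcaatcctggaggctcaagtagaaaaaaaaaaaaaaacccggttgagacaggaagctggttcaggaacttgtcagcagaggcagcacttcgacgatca
Cd84: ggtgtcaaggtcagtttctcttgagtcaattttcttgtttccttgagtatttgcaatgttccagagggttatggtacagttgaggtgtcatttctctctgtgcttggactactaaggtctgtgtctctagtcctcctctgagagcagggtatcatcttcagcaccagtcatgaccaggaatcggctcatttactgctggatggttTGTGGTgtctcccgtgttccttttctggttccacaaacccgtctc

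The Cd48 window held 1 RUNX match, which began 76 bases before the start site, and the Cd84 window held 1, at 45 bases. The Slamf1 window held 1 GATA match at 129 bases. Of 32851 upstream windows of the same length, 14.0% held the RUNX letters and 22.6% the GATA letters. The Cd48 window lies inside the longest annotated extent of the gene. The ETS letters, found in 25.2% of all windows, were in none of the 8 SLAM windows in the table, which has no entry for Ly9. The E-box letters, found in 13% of windows, were in those of Slamf8 and Slamf9. A match is a string of letters and not a measured binding site.

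No SLAM gene passed an adjusted p of 0.05 in limma, and neither did any of the 23410 features tested (0%). At an unadjusted p under 0.05 there were 2 of the 9 genes (22.2%), Slamf6 and Cd48, both higher in Lxn-/-, against 14.3% of all features in either direction with 5.06% higher and 9.23% lower. The 3 Lxn-/- values lay wholly above the 3 WT values for Cd48, Ly9 and Slamf6 (33.3% of the family), and no SLAM gene had them wholly below. Among all features, 21.6% had groups without overlap, 8.54% with Lxn-/- above and 13% with Lxn-/- below. The median change of the 9 genes was -0.08, beside -0.038 over all features, and 4 of them had the higher mean in Lxn-/-, beside 42.2% of all features.

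Cd48, the ligand of CD244, averaged 10.94 ± 0.13 in Lxn-/- and 10.58 ± 0.16 in WT (SD, n = 3 each). The change of 0.36 (SE 0.11, 95% interval 0.11 to 0.61), a 1.28-fold higher mean, had an adjusted p of 0.340 in limma. The groups were separated by 0.09. All 3 Lxn-/- arrays were higher than every WT array, and array 2, which had no Y-linked signal, was the lowest of the 3. The part of sex in the Cd48 change was not tested. Against WT, the change was 0.21 with Lxn-/- array 2 alone (adjusted p = 0.551 in limma, the lone array being assumed to vary like WT), 0.43 with arrays 1 and 3 alone and 0.27 without WT array 2.

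Slamf6 encodes Ly108, a receptor that binds itself and is known from T cells and natural killer T cell development. It was 7.56, 7.64 and 7.82 in the Lxn-/- arrays, against 7.43, 7.29 and 7.17 in the WT arrays. The groups did not overlap, and the gap between them was 0.13. The change of 0.38 (SE 0.11, 95% interval 0.13 to 0.62) had the smallest p in the family, 0.00665 unadjusted and 0.340 adjusted in limma. With Lxn-/- array 2 alone it was 0.35 (adjusted p = 0.372 in limma). Slamf6 was a dim feature, close to the olfactory receptor level.

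Ly9 encodes CD229, a receptor that binds itself and marks subsets within the stem and progenitor gates. It was 10.78, 10.79 and 10.78 in the Lxn-/- arrays, against 10.60, 10.66 and 10.69 in the WT arrays. The groups did not overlap, with a gap of 0.09. The 3 Lxn-/- values were closer together than the WT values (SD 0.0024 against 0.05). The change was 0.13 (SE 0.08, 95% interval -0.05 to 0.32, adjusted p = 0.430 in limma), and it was 0.13 with Lxn-/- array 2 alone.

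Cd244, the receptor of CD48, was 9.74, 9.90 and 10.21 in the Lxn-/- arrays, against 9.61, 9.75 and 9.67 in the WT arrays. The groups overlapped by 0.01, where Lxn-/- array 1 fell just below WT array 2, and Lxn-/- array 3 was the highest. The change was 0.28 (SE 0.12, 95% interval -0.01 to 0.56, adjusted p = 0.352 in limma). It was 0.15 without Lxn-/- array 3 and 0.23 with array 2 alone. The receptor and its ligand thus both had the higher mean in Lxn-/-, and neither passed.

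Cd84, a receptor that binds itself and is found on platelets, mast cells and B cells among others, split the Lxn-/- arrays. It was 9.21, 10.15 and 9.82 in Lxn-/- arrays 1 to 3, against 9.77, 9.68 and 9.96 in the WT arrays. Lxn-/- array 1 was the lowest of all and array 2 the highest, so the WT values lay inside the Lxn-/- range. The change of -0.08 (SE 0.21, 95% interval -0.55 to 0.39, adjusted p = 0.853 in limma) turned to 0.18 without Lxn-/- array 1 and to 0.35 with Lxn-/- array 2 alone (adjusted p = 0.376). Array 1 also had the lowest Kit, 11.48 against 12.10 to 12.15 in the other Lxn-/- arrays and 12.05 to 12.19 in WT. The 7 mast cell and basophil genes described below were lowest in the same array. Their part in the Cd84 value was not tested.

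**Figure D2:**
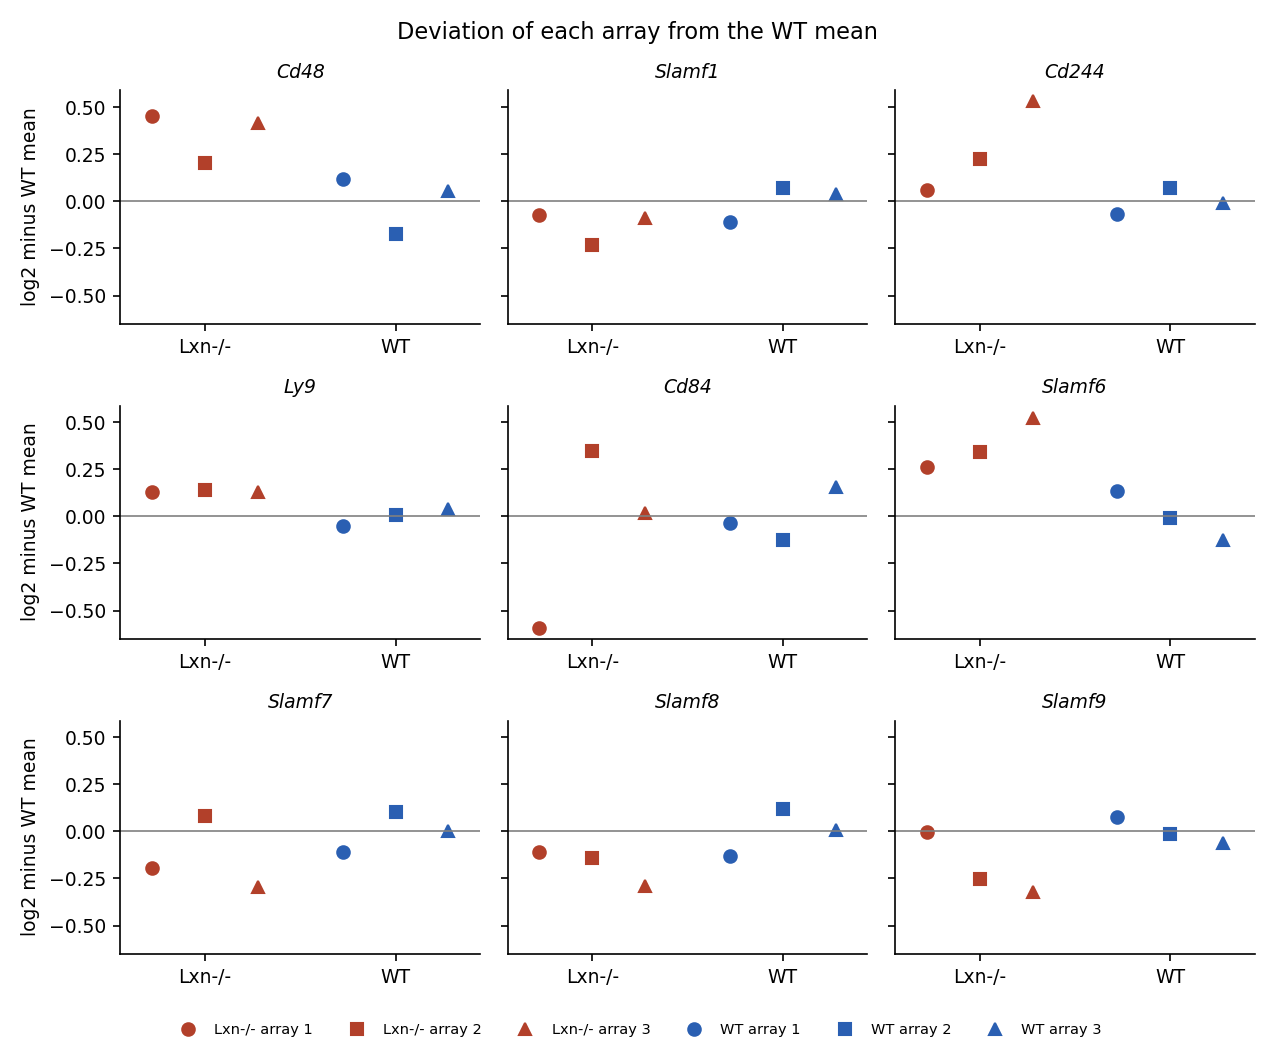
Log2 value of each array minus the WT mean for each SLAM family gene, Lxn-/- arrays in red left of WT arrays in blue, with the symbol giving the replicate number. The Lxn-/- points of Cd48, Ly9 and Slamf6 lie above all WT points, and those of Cd84 spread widest, with array 1 at the bottom.

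The 4 remaining genes were dim and had the lower mean in Lxn-/-, with overlapping groups. Slamf1 had a change of -0.13 (SE 0.09, adjusted p = 0.470 in limma). Slamf7, known from natural killer and plasma cells, ranged from 6.53 to 6.91 in Lxn-/- and from 6.72 to 6.93 in WT, a change of -0.13 (SE 0.12). Slamf8, which is known from macrophages, ranged from 6.58 to 6.76 in Lxn-/- and from 6.74 to 6.99 in WT, a change of -0.18 (SE 0.10). Slamf9, whose tail lacks the tyrosine motifs as that of Slamf8 does, was 7.37, 7.12 and 7.05 in Lxn-/-, against 7.45, 7.36 and 7.31 in WT, a change of -0.20 (SE 0.10, adjusted p = 0.388 in limma). With Lxn-/- array 2 alone against WT, the changes were -0.23 for Slamf1, 0.09 for Slamf7, -0.14 for Slamf8 and -0.25 for Slamf9.

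Brightness moved with the direction of change across the whole array. Dim features tended to be lower and bright ones higher in Lxn-/-, and 960 of the 1035 olfactory receptor features had the lower mean there, with a median change of -0.18. When all features were split into 10 bands by mean level, the bands that hold Slamf1, Slamf7, Slamf8 and Slamf9 had median changes between -0.147 and -0.107. The values of these 4 genes, from -0.20 to -0.13, lay near those of their bands. The bands of Cd48 and Ly9 (0.086) and of Cd244 and Cd84 (0.090) had medians above 0, and 19.1% of the features in the band of Cd48 and Ly9 had Lxn-/- wholly above WT. Slamf6 went against its band, whose median was -0.123 and in which 3.12% of features had Lxn-/- wholly above WT. After the arrays were quantile-normalized again, the changes were 0.45 for Slamf6, 0.27 for Cd48, 0.20 for Cd244, 0.04 for Ly9 and -0.02 for Slamf1, and no gene changed direction.

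**Figure D3:**
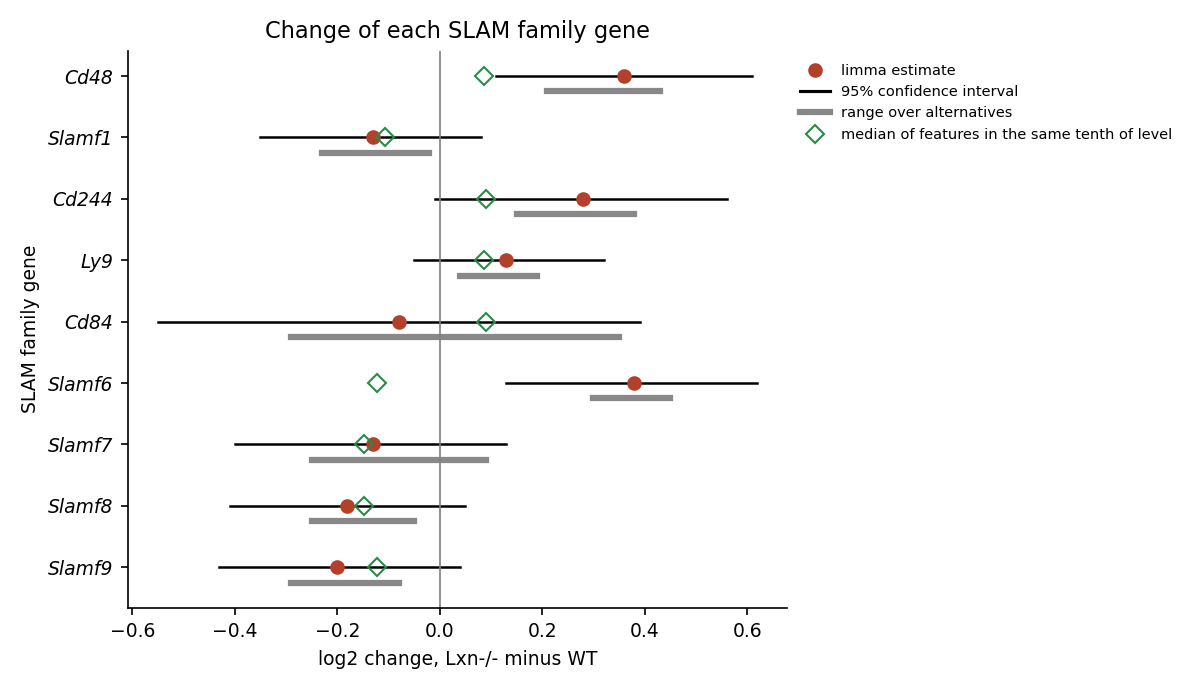
Log2 change (Lxn-/- minus WT) of each SLAM family gene from limma with its 95% confidence interval, the range over the alternative settings in grey and the median change of all features in the same band of mean level as a green diamond. Slamf6 and Cd48 have intervals above 0 and lie apart from their diamonds, and the 4 dim genes lie near theirs.

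The difference of the Slamf1 and Cd48 log2 values within each array was also taken. Because Slamf1 was not above background, and the olfactory receptor features were themselves lower in Lxn-/-, it reads Cd48 against a background feature and not the relation of the CD150 and CD48 genes. It was -5.54, -5.46 and -5.52 in the Lxn-/- arrays, against -5.24, -4.76 and -5.02 in the WT arrays. All 3 Lxn-/- values lay below all 3 WT values. Cd48 by itself already separated the groups, so this separation is not a further result. The bands of mean level that hold Slamf1 and Cd48 had median changes of -0.107 and 0.086. A dim feature minus a bright one thus tended to shift in the same direction. The shift was -0.49 (exact permutation test, two-sided, p = 0.1, the smallest p that 3 arrays against 3 allow). It was -0.45 with Lxn-/- array 2 alone. After quantile normalization it was -0.29 and the groups were no longer fully separated (exact permutation p = 0.2).

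Adaptors, enzymes and other signalling partners of the SLAM receptors, with the related receptor Cd2, were next examined as a list of 26 genes. Of these, 24 were measured (Lck and Lyn were not analysed here). None passed, and none had an unadjusted p under 0.05 in limma. Their median change was 0.02, 14 had the higher mean in Lxn-/-, and 3 (12.5%) had groups without overlap, beside the 21.6% of all features. The 3 adaptor genes of the SAP family were dim, whereas the adaptor genes Grb2, Nck1, Dok1, Dok2 and Lat were above the olfactory receptor level in both groups. Sh2d1a, which encodes SAP, was 5.90, 5.94 and 5.82 in Lxn-/-, against 5.99, 5.96 and 6.03 in WT, below the olfactory receptor level in every array (change -0.11, SE 0.08). The 2 genes for its relatives EAT-2 and ERT, Sh2d1b1 and Sh2d1b2, are similar in sequence and may share signal, and they averaged 6.12 and 4.46 in Lxn-/- and 6.06 and 4.45 in WT. Cd2, the other receptor of CD48, was likewise below that level, at 6.14 ± 0.12 in Lxn-/- and 6.19 ± 0.11 in WT (SD, n = 3 each).

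The enzymes named here were bright. Fyn, the kinase that SAP brings to the receptors, was 9.85 ± 0.11 in Lxn-/- and 9.83 ± 0.03 in WT. Inpp5d, which encodes the lipid phosphatase SHIP1, was 11.79 ± 0.12 in Lxn-/- and 11.82 ± 0.05 in WT. Ptpn6, the phosphatase SHP-1, averaged 10.84 in both groups. Ptpn11, the phosphatase SHP-2, was 10.42, 10.41 and 10.35 in Lxn-/-, against 10.34, 10.29 and 10.22 in WT. Its groups did not overlap, with a change of 0.11 (SE 0.08, adjusted p = 0.497 in limma), and Plcg2, a phospholipase gene, likewise had all Lxn-/- values above WT (0.10, SE 0.08).

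Genes that mark the progenitor subsets told apart by SLAM antibodies were set beside the family. Again none passed in limma, and the lists are described by counts. All arrays were kept for these lists, so genotype and sex cannot be told apart in them. Of 11 stem cell genes, 10 had the lower mean in Lxn-/- (median change -0.22). Gata2, a transcription factor gene of stem cells, was 9.05, 9.76 and 9.83 in Lxn-/-, against 10.02, 10.25 and 9.90 in WT (-0.51, SE 0.20), while Hlf (-0.54, SE 0.25) and Tek (-0.41, SE 0.20) had overlapping groups. Of 11 megakaryocyte and erythroid genes, 10 had the lower mean (median -0.26), with Zfpm1 at -0.43 (SE 0.14), Gata1 at -0.35 (SE 0.13) and Itga2b at -0.31 (SE 0.12). The groups did not overlap for Zfpm1, Gata1, Klf1 and Vwf, 36.4% of the list with Lxn-/- lower, beside 13% of all features. In the band of mean level that holds Gata1, Klf1 and Vwf, 21.5% of features were wholly lower, and in that of Zfpm1 1.24%. All 7 mast cell and basophil genes had the lower mean (median -0.42), among them Mcpt8 (-0.72, SE 0.25) and Prss34 (-1.02, SE 0.33), which encode proteases, and Fcer1a (-0.32, SE 0.12), a subunit of the IgE receptor.

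Lxn-/- array 1 stood apart in these lists. Relative to the WT mean, the median of the mast cell and basophil list was -1.08 in Lxn-/- array 1, against -0.17 and -0.15 in Lxn-/- arrays 2 and 3. The stem cell median was -0.61, -0.05 and -0.14 in Lxn-/- arrays 1 to 3, against -0.08, 0.13 and -0.03 in the WT arrays. The SLAM family median was -0.01, 0.13 and 0.01 in Lxn-/- arrays 1 to 3, against -0.05, 0.01 and 0.01 in the WT arrays, and array 1 was not apart in it.

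Of 12 granulocyte and monocyte genes, 8 had the higher mean in Lxn-/- (median 0.13), and in 4, Irf8, Ly86, Csf1r and Ctsg, the Lxn-/- values lay wholly above WT. That is 33.3% of the list, beside 8.54% of all features and 15.2% to 19.1% in the 3 brightest bands. Another 4 of the 12 had the lower mean. Relative to the WT mean, the list median was 0.06, 0.07 and 0.34 in Lxn-/- arrays 1 to 3. It ranged from -0.17 to 0.15 in the WT arrays, so the list as a whole did not separate the groups. Irf8, a transcription factor gene of monocyte and dendritic cell progenitors, was 11.50, 11.45 and 11.42 in Lxn-/-, against 11.26, 10.97 and 10.88 in WT (0.42, SE 0.11, adjusted p = 0.340 in limma). Csf1r, the receptor gene for macrophage colony-stimulating factor, had a change of 0.50 (SE 0.14), and Ly86, which encodes MD-1, one of 0.73 (SE 0.20). Of 12 lymphoid-primed genes, 8 had the higher mean (median 0.14). Their list median relative to the WT mean was -0.02, 0.17 and 0.15 in Lxn-/- arrays 1 to 3, against -0.05 to 0.02 in WT, so it also overlapped. Satb1, a chromatin organiser of lymphoid progenitors, was 12.08, 12.09 and 12.25 in Lxn-/-, against 11.91, 11.91 and 11.87 in WT (0.24, SE 0.09). Blnk had a change of 0.46 (SE 0.20) with overlapping groups. Lax1 was lower in every Lxn-/- array (-0.29, SE 0.12), but barely so, as Lxn-/- array 3 and WT array 1 both round to 9.73. The part of these lists in the Cd48 and Slamf6 values was not tested.

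**Figure D4:**
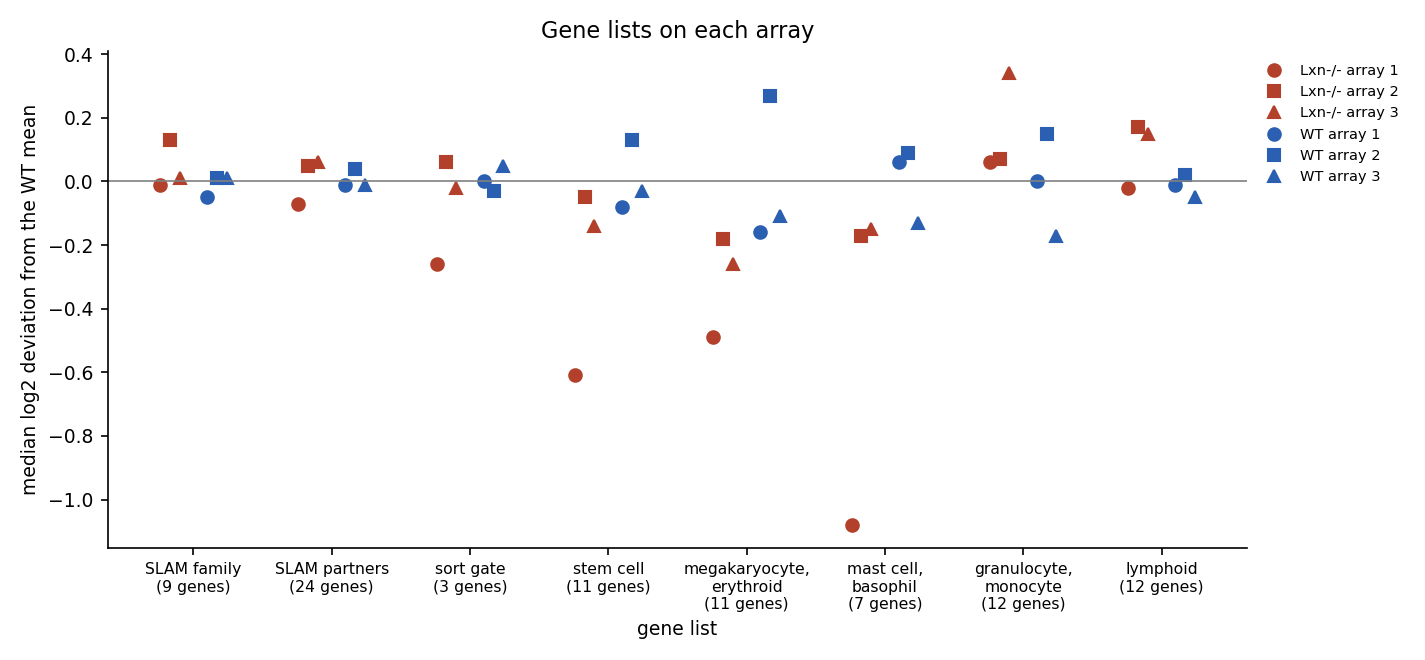
Median log2 deviation from the WT mean over the genes of each list, per array, with Lxn-/- arrays in red left of WT arrays in blue. The SLAM family medians of both groups lie between -0.05 and 0.13, whereas Lxn-/- array 1 is the lowest array for the stem cell, megakaryocyte and erythroid, and mast cell and basophil lists.

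SLAM receptors are also found on mature lymphocytes and myeloid cells, so markers of those cells were examined. Of 7 mature T cell markers, 4 were above the olfactory receptor level in each group. Only 41.8% of all features were dimmer than Slamf9, which lay close to that level. Counts above it, here and for the lists that follow, thus do not by themselves show mature cells. The median deviation of the list from the WT mean was 0.38 in Lxn-/- array 1, -0.13 in array 2 and -0.09 in array 3, against -0.08 to 0.16 in WT, so array 1 stood apart, with its Cd3e, Cd3g and Cd8a values the highest of the 6 arrays. Cd28, a costimulatory receptor gene, had a change of 0.43 (SE 0.24) with overlapping groups. Cd3d, a defining T cell gene, was 5.88 ± 0.04 in Lxn-/- and 5.99 ± 0.22 in WT (SD, n = 3 each), below that level. Of 7 natural killer cell markers, 2 were above it in each group, with list means from 6.92 to 7.06 in Lxn-/- and from 6.99 to 7.09 in WT. The defining receptor gene Ncr1 was below it, at 5.94 ± 0.16 in Lxn-/- and 6.24 ± 0.10 in WT, and Eomes, a transcription factor gene, was also dim (-0.25, SE 0.11). Nkg7, a granule protein gene, was bright and had a change of 0.27 (SE 0.12) with overlapping groups. Of 6 B cell markers, 2 were above it in each group, with list means from 7.36 to 7.38 in Lxn-/- and from 7.31 to 7.69 in WT. These 2 were Cd79b, which was bright (10.64 in Lxn-/- and 10.62 in WT), and Ebf1, close to the level (7.23 and 7.35). Ms4a1, which encodes CD20, was below it in both groups.

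Of 7 macrophage and monocyte markers, 4 were above the level in each group. Their list mean was wholly lower in Lxn-/-, from 7.60 to 7.72 against 7.77 to 8.02 in WT, with C1qb at -0.50 (SE 0.15) and Vcam1 at -0.52 (SE 0.18), while Cd68 was wholly higher (0.32, SE 0.12). Of 7 dendritic cell markers, 5 were above it in Lxn-/- and 3 in WT, and 5 had the lower mean in Lxn-/- (median -0.03). The level itself was 7.10 in Lxn-/- and 7.33 in WT, so these counts do not compare expression between the groups. Zbtb46, a dim transcription factor gene, had a change of -0.34 (SE 0.14) and Clec9a one of 0.22 (SE 0.13), both with overlapping groups. Itgax, which encodes CD11c, lay wholly higher in Lxn-/- (0.26, SE 0.11), and Ccr7, a chemokine receptor gene, wholly lower (-0.14, SE 0.08). The part of mature cells in the SLAM values was not tested.

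The SLAM genes lie close together on chromosome 1 (GRCm38.p6 gene table). Cd244, Ly9, Slamf7, Cd48, Slamf1, Cd84 and Slamf6 follow each other with no other measured gene between them, and Slamf9 and Slamf8 lie further along. Of 27 other measured genes, 17 between the outermost SLAM genes and 5 on either side, none passed in limma and 4 had an unadjusted p under 0.05, beside 14.3% of all features. In 5 of them (18.5%, near the 21.6% of all features) the groups did not overlap, and in all 5, Itln1, Nhlh1, Kcnj10, Cfap45 and Fcrl6, the Lxn-/- values were lower. All 5 were dim, and in the 4 dimmest bands 18.1% to 24.6% of features were wholly lower in Lxn-/-. The median change of the 27 genes was -0.08. Within the run of 7, Ly9, Cd48 and Slamf6 had Lxn-/- above WT, while Slamf7 and Slamf1, which lie on either side of Cd48, had lower means and dim signal.

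**Figure D5:**
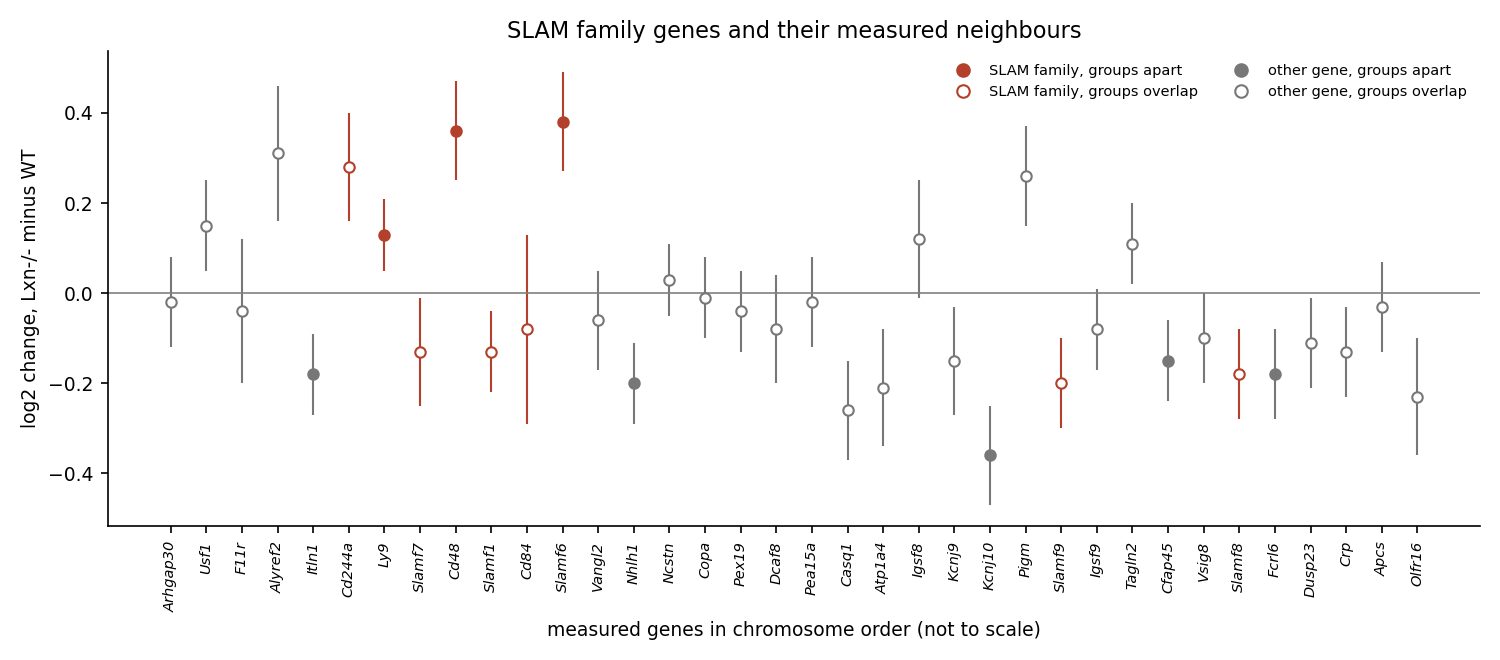
Log2 change (Lxn-/- minus WT) with its SE for the 9 SLAM genes (red, Cd244 as Cd244a) and 27 other measured genes (grey) in their order on the chromosome, filled where the 3 Lxn-/- and 3 WT values do not overlap. The filled red points, Ly9, Cd48 and Slamf6, are above 0, and the 5 filled grey points are below it.

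The genes whose deviations from their own mean over the 6 arrays were most like those of 3 SLAM genes were listed as a description, by root mean square difference in log2 units over 16945 genes. The nearest to Cd48 were Psmc2 (0.027), Nmd3 (0.029) and Pde12 (0.030), and 285 genes lay within 0.1. The nearest to Cd244 were Dyrk2 (0.035), Senp2 (0.047) and Atp6v1c1 (0.048), with 146 genes within 0.1. The nearest to Slamf1 were Lkaaear1 (0.021), Fmr1nb (0.022) and Pxdn (0.026), with 2954 genes within 0.1. None of these 9 genes is in the SLAM family or, by the gene table, on chromosome 1.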

How the data were processed

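The values analysed are the authors' deposited log2 expression values for 35557 features on 6 arrays, normalized by RMA per the series text. The submitters' processing notes also name Partek 6.0. Per the labels' protocols, biotin labelling began from 100 ng of total RNA. Titles give each array's group and number. Settings of RMA are unknown here, and values run from 2.65 to 14.78, as on a log2 scale. Normalized values do not measure total RNA per cell.

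Probe names came from the annotation table of the platform, updated by Entrez identifier in the GRCm38.p6 gene table. All 23410 features with at least 1 symbol were fitted with limma 3.58.1 in R 4.3.3 (lmFit, eBayes, two-sided), with Benjamini-Hochberg adjustment and a threshold of 0.05. Each array is labelled a biological replicate made from pooled mice, so p-values measure the spread between pools. The fit was tested on simulated data. The permutation test used scipy 1.17.1, and figures matplotlib 3.10.9.

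The genes and lists were chosen with earlier results of these data known. All 9 SLAM genes are named. Of the partners, the SAP family adaptors, Fyn, Inpp5d, Ptpn6, Ptpn11, Cd2 and those without overlap are named. Of each other list, the gate genes and at most 3 genes by smallest unadjusted p are named. Klf1, Vwf, Ctsg, Ccr7, Cd3e, Cd8a, Cd79b and the bright adaptors were named after their values were seen. Neighbours without overlap and the 3 nearest genes in pattern to Cd48, Slamf1 and Cd244 are also named. Alternatives were other normalizations, filters and variance models, the replicate block, and arrays left out.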

Additional observations from a re-analysis of the deposited data

How the results depend on the processing

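No SLAM gene and no partner gene passed an adjusted p of 0.05 under any of the 15 alternatives that kept that threshold. Over all features the count passing was 0, and it was 145 without Lxn-/- array 2 and 0 to 3 under the other alternatives. With the looser threshold of an unadjusted p under 0.05, 2 SLAM genes were counted, and with array weights, arrays centred on their median or Lxn-/- array 1 left out there were 4. In the main limma fit 14.3% of all features met that threshold, and their shares under the alternatives are not given here. The direction held under every alternative for all genes except Cd84, at 0.18 without Lxn-/- array 1, 0.35 without Lxn-/- arrays 1 and 3 and 0.06 with array weights, and Slamf7, at 0.09 without Lxn-/- arrays 1 and 3. Leaving out 1 array moved Cd84 between -0.29 and 0.18. The cause was not tested. Cd48 ranged from 0.21 to 0.43, Slamf6 from 0.30 to 0.45, Cd244 from 0.15 to 0.38 and Ly9 from 0.04 to 0.19. The median change over the family, -0.08, ranged from -0.096 to 0.131 when 1 array was left out. It was 0.134 without Lxn-/- arrays 1 and 3, -0.009 after quantile normalization, 0.063 with array weights and 0.204 when only features above the median level were kept, a filter that leaves 4 of the 9 genes. The number of SLAM genes without overlap was 3 to 6 when 1 array was left out, with 6 of 9 without Lxn-/- array 1 and 5 without WT array 1, and 8 without Lxn-/- arrays 1 and 3. It was 2 after quantile normalization (12.8% of all features) and 4 with centred arrays (21.2% of all features). With features above the median level only, it was 2 of the 4 genes kept (19.4% of all features kept). Fewer arrays overlap less by construction, and the shares of all features were 46.2% without Lxn-/- array 1, 33.9% without WT array 1 and 64.6% without Lxn-/- arrays 1 and 3. The Slamf1 minus Cd48 shift ranged from -0.61 to -0.37 when 1 array was left out. The variance models and the replicate block cannot alter counts of overlap or of genes above the olfactory receptor level.

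Deviations of same-numbered arrays correlated at 0.08, -0.01 and -0.01 across features. This shows no clear pairing by replicate number, but 3 arrays per group cannot exclude it. Cd48 was lowest in array 2 of both groups. Its unadjusted p in limma was 0.00528 with the replicate number as a block and 0.0105 without. With the replicate number as a block, 0 SLAM genes passed, 3 had an unadjusted p under 0.05, Cd48 stayed at 0.36, the family median at -0.08 and the Slamf1 minus Cd48 shift at -0.49 (exact sign-flip permutation test over 3 pairs, p = 0.25, the smallest possible). Features near background limit Slamf1, Slamf7, Slamf8 and Slamf9.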
